A study of Mus musculus with 4 samples.

Results

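Fc receptors are the surface proteins with which macrophages read antibody, and ITAM adaptors are the small membrane proteins that carry their signal. A set of 9 such genes was followed in resident macrophages of the peritoneal cavity, known as large peritoneal macrophages (LPMs). The genes were the Fc gamma receptors *Fcgr1*, *Fcgr2b*, *Fcgr3* and *Fcgr4*, the neonatal Fc receptor *Fcgrt*, the adaptors *Fcer1g* and *Tyrobp*, the adaptor-coupled receptor *Trem2* and the kinase *Syk*. They were chosen by name, with earlier results of these data known. All 9 were in the table of 18364 genes and passed its filter on low values.

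Bulk RNA was sequenced from 4 libraries of LPMs, sorted as F4/80+, MHCII-negative and CD102+ cells from C57BL/6 mice aged 8 weeks, with 2 libraries labelled WT (wild type) and 2 labelled Rxra-KO (Rxra-/-). Per the methods of the study, the knockout was LysM Cre+ Rxra fl/fl, in which Cre is driven from the *Lyz2* locus of myeloid cells, and the wild type was Rxra fl/fl littermates, so both groups carried floxed alleles. Depth was low, at 629030 to 1047021 reads per library, and a single read was worth a normalised value of 0.993 to 1.51. The labels number the replicates and do not say that they came from separate animals. The p-values thus measure only the spread among these libraries, mostly pooled across genes, and that spread may be technical.

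An activating Fc gamma receptor binds the constant part of IgG outside the cell and pairs inside the membrane with the FcRγ chain, the product of *Fcer1g*. Clustering lets Src family kinases phosphorylate the tyrosines of the ITAM in that chain, and the kinase Syk docks there and starts phagocytosis and cytokine release, whereas the inhibitory receptor FcγRIIB carries an ITIM instead and recruits a lipid phosphatase that dampens the same signal. DAP12, encoded by *Tyrobp*, is the ITAM adaptor of TREM2 and several other receptors, and the neonatal receptor FcRn does not signal but saves IgG and albumin from breakdown in endosomes.

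The check of the labels comes first. *Rxra*, the targeted gene, had 20 and 28 reads in WT libraries against 33 and 77 in the Rxra-KO libraries, a log2 fold change (log2FC) of 0.99 (limma, adjusted p = 0.183), which goes against the label. The table does not say which exons the reads came from, so reads outside the deleted part cannot be told apart, and the group is called the libraries labelled Rxra-KO. *Lyz2*, from whose locus Cre is driven, had values of 14263 and 11591 in WT against 6386 and 6230. Its log2FC was -1.03 (limma, adjusted p = 0.00163), and the part of the Cre allele in this fall was not tested. Of 12 LPM markers, 11 had a negative log2FC and 10 were called lower in the libraries labelled Rxra-KO, by the rule given below. Summed values of the 12 were 40522 and 42403 in WT against 20772 and 23515. Of 11 markers of small peritoneal macrophages (SPMs) and monocytes, 9 had a positive log2FC and 6 were called higher. These 6 were *Ccr2*, *Irf4*, *Mrc1*, *Retnla*, *Cd209d* and *Clec4b1*. Summed values of the 11 were 417 and 231 against 3170 and 4675. *Cd209d* and *Clec4b1* were at 0 reads in both WT libraries. Per the methods of the study, the cells were re-sorted to a nearly pure LPM population. In bulk RNA, fewer cells of a type and less RNA per cell cannot be told apart, and the part of these markers in the changes below was not tested.

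Of the 9 genes, 3 rose in the libraries labelled Rxra-KO and 0 fell, and the genes that rose were not the activating receptors. They were *Fcgr2b*, the only inhibitory Fc gamma receptor of the mouse, *Fcgrt*, the IgG salvage receptor, and *Trem2*, a receptor for lipids and lipoproteins. A gene was called by limma when its adjusted p was under 0.05 and its log2FC was 0.6 or more in size, and 2.29% of all genes were called, 1.32% higher and 0.969% lower. Because the 9 genes were chosen with earlier results of these data known, their share of calls is not an independent finding. The study's own list of upregulated transcripts from these libraries holds *Fcgr2b* and *Trem2*. That list could be read only in part, so whether it holds *Fcgrt* was not settled. The median log2FC of the 9 genes was 0.07, beside 0.02 over all genes. At an unadjusted p under 0.05, limma listed 6 of the 9, 3 higher and 3 lower, where 10.1% of all genes passed. The count of 0 lower was 1 with edgeR, for *Fcgr4*, and 0 with DESeq2. When the mean-variance trend was left out, limma called 0 genes of the whole table and 1579 had an unadjusted p under 0.05, so the calls rest on the spread shared across genes. Both libraries labelled Rxra-KO lay above both WT libraries for 4 of the 9 genes and below them for 3, and over all genes this held for 18.8% and 19.3%.

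**Figure D1:**
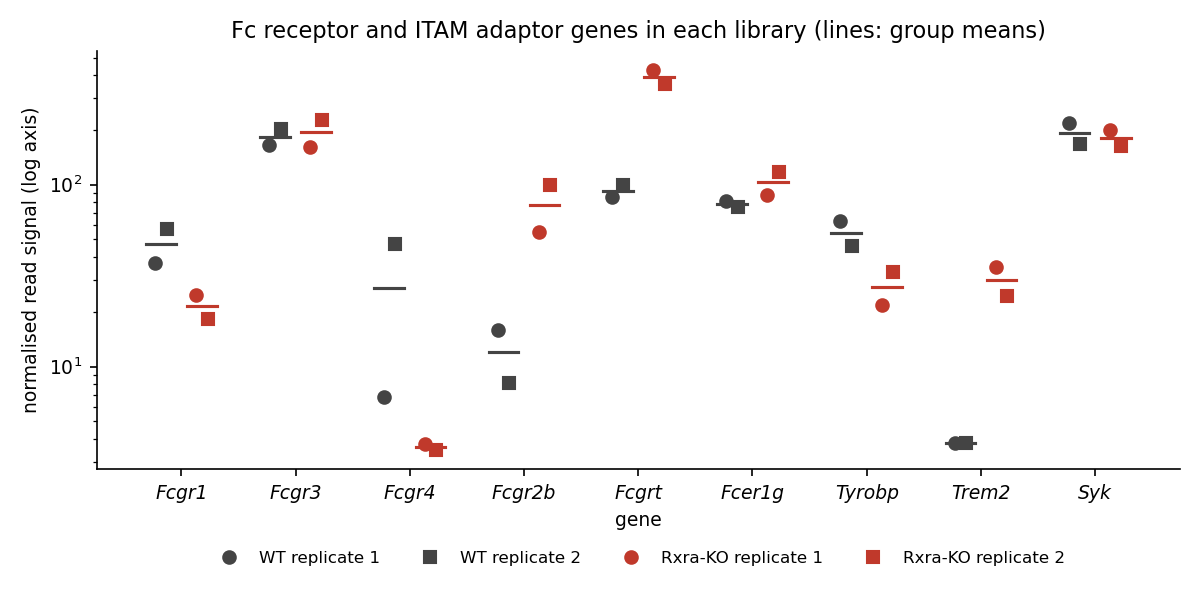
Normalised value of each of the 9 genes (log axis) in the 4 libraries, with circles for replicate 1, squares for replicate 2 and horizontal lines for the mean of each group of 2. Red points stand clear above grey points for *Fcgr2b*, *Fcgrt* and *Trem2*, interleave for *Fcgr3* and *Syk*, and lie below them for *Fcgr1*, *Fcgr4* and *Tyrobp*, which did not pass the test.

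The promoters of the 3 genes that rose are shown because these genes moved together. Each is the 250 bases before the RefSeq start site on GRCm38.p6, written 5′ to 3′ on the strand of the gene: *Fcgr2b* at chr1:170976072-170976321 (minus strand), *Fcgrt* at chr7:45103823-45104072 (minus strand) and *Trem2* at chr17:48346151-48346400 (plus strand). Capitals mark matches to AGGTCA, the half-site of nuclear receptors, and to GAGGAA, the core bound by the myeloid factor PU.1, on either strand, so that TGACCT and TTCCTC are the reverse complements.
Fcgr2b: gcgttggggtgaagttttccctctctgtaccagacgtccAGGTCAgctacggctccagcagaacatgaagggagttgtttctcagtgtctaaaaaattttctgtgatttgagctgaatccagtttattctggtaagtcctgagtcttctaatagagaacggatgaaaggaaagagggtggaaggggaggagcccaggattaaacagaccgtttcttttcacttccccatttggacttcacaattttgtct
Fcgrt: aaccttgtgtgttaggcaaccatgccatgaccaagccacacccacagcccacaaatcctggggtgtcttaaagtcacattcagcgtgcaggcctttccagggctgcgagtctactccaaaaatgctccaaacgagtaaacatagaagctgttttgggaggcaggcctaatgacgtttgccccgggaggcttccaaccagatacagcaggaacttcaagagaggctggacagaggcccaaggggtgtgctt
Trem2: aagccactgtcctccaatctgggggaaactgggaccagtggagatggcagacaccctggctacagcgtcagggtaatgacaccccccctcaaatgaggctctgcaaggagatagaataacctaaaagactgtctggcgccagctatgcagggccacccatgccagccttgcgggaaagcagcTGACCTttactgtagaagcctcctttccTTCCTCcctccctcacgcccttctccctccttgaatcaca

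AGGTCA began at position -211 from the start site in *Fcgr2b* and, on the other strand, at -68 in *Trem2*. The *Trem2* promoter also held GAGGAA on the other strand at -40, and the *Fcgrt* promoter held neither motif. Among all 32851 promoter windows of this length, 14.0% held AGGTCA and 23.3% held GAGGAA. Of the genes that were not called, *Fcgr1*, *Fcgr3*, *Fcgr4* and 1 of the 2 start sites of *Syk* held GAGGAA, *Fcer1g* held neither, and none held AGGTCA. The AP-1 site TGACTCA was in no promoter of these genes and in 4.46% of all windows. The promoter of *Tyrobp* was not analysed here. A match describes letters in a window and no binding was measured.

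Among the activating receptors, *Fcgr3* had the most reads and did not differ. *Fcgr3* encodes FcγRIII, a low-affinity receptor for IgG complexes, and its normalised values were 164 and 203 in WT and 162 and 228 in the libraries labelled Rxra-KO. The groups overlapped, with means of 184 ± 27.7 and 195 ± 46.7 (SD, n = 2 each). The log2FC was 0.07 (95% interval -0.43 to 0.57, limma, adjusted p = 0.981), and this interval excludes a change of the size seen for *Fcgr2b*.

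*Fcgr1* encodes FcγRI (CD64), the high-affinity IgG receptor used as a macrophage marker. The WT libraries held 24 and 52 of its reads and those labelled Rxra-KO held 16 and 18, or normalised values of 37.1 and 57.0 against 24.8 and 18.4. Both libraries labelled Rxra-KO lay below both WT libraries. The log2FC of -1.07 ± 0.41 (SE) had an unadjusted p of 0.00974 and did not pass after adjustment (limma, adjusted p = 0.224).

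*Fcgr4* encodes FcγRIV, an activating receptor for IgG2a and IgG2b. Its values were 6.81 and 47.2 in WT against 3.76 and 3.48, from 4 and 43 reads against 2 and 3. The libraries labelled Rxra-KO were both at the floor of 3 reads, and the WT libraries stood far apart, with nearly all reads in WT replicate 2. Summed over libraries and scaled, WT held 9.93 times the reads of the other group (95% interval 3.97 to 32.0, counting error only). The log2FC of -2.07 ± 0.71 (SE) was not called (limma, adjusted p = 0.118) but was called by edgeR, at -3.14 (adjusted p = 0.000987), and by limma without WT replicate 1, at -3.38 (adjusted p = 0.00126). Without WT replicate 2 it was -0.76, and over all alternatives the adjusted p ran from 0.000987 to 0.903.

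The inhibitory receptor *Fcgr2b* was the only one of the 4 Fc gamma receptors that limma called. The WT libraries held 10 and 7 of its reads and those labelled Rxra-KO held 36 and 100, or values of 15.9 and 8.14 against 55.0 and 99.8. The lowest Rxra-KO value was above the highest WT value, although the Rxra-KO libraries differed from each other. The mean rose 6.44-fold, from 12.02 ± 5.49 to 77.4 ± 31.7 (SD, n = 2 each), with a log2FC of 2.60 ± 0.42 (SE) and an adjusted p of 8.62e-07 (limma). The call was lost without Rxra-KO replicate 2, where the log2FC was 2.17 (limma, adjusted p = 0.0566). Over all alternatives the adjusted p ran from 2.36e-08 to 0.453, the highest in limma without a mean-variance trend.

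*Fcgr2b*, *Fcgr4* and *Fcgr3* are neighbours in that order on chromosome 1, and *Fcgr2b* and *Fcgr3* are close relatives whose reads a counter can confuse. In GENCODE vM21, 233 of the 3632 stretches of 31 bases in *Fcgr2b* (6.42%) and of the 1627 in *Fcgr3* (14.3%) occur in both genes. The longest stretch shared by transcripts Fcgr2b-201 and Fcgr3-201 is 129 bases of coding sequence, from base 402 to 530 of the first and 313 to 441 of the second, and is printed because a read lying within it cannot be placed in either gene.
Shared by Fcgr2b-201 and Fcgr3-201: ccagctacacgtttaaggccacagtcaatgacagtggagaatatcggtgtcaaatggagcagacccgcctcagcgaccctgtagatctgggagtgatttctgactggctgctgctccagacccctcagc

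How the counting divided such reads is not recorded in the table. Counting every other gene, 457 of the stretches of *Fcgr2b* (12.6%) occur elsewhere, in 242 genes, while those of *Fcgr3* are shared with *Fcgr2b* alone. These shares do not bound the error in the values of the 2 genes. In WT, *Fcgr2b* had 10 and 7 reads beside 108 and 187 of *Fcgr3*, so misplaced reads would weigh more on *Fcgr2b*. The other 7 genes had from 0% to 1.39% of such stretches in common with any other gene. Per 100 reads of *Fcgr3*, *Fcgr2b* counted 9.26 and 3.74 in WT against 33.6 and 43.7. The ratio was higher in both libraries labelled Rxra-KO than in either WT library. Per the methods of the study, cells for flow cytometry were blocked with an antibody to CD16 and CD32, the products of these same genes, and its part in the values was not tested.

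As a share of all reads of the 4 Fc gamma receptors, *Fcgr2b* was below *Fcgr1* in both WT libraries and above it in both labelled Rxra-KO. It took 6.85% of 146 reads (exact 95% interval 3.33 to 12.2) and 2.42% of 289 reads (0.979 to 4.93) in WT. In the libraries labelled Rxra-KO it took 22.4% of 161 reads (16.2 to 29.6) and 28.6% of 350 reads (23.9 to 33.6). No interval of one group reached an interval of the other, and the intervals cover counting error only, since no molecular identifiers were used and amplified copies count as reads. Group means were 4.64% ± 3.13 and 25.5% ± 4.39 (SD, n = 2 each), a difference of 20.8 percentage points, and with 2 libraries against 2 an exact permutation test cannot give a p below 0.333.

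The share of *Fcgr1* was 16.4% and 18.0% in WT against 9.94% and 5.14%, and that of *Fcgr4* was 2.74% and 14.9% against 1.24% and 0.857%. *Fcgr3* kept the largest share in every library, from 64.7% to 74.0%. The summed value of the 4 receptors was 224 and 316 in WT and 245 and 350 in the libraries labelled Rxra-KO, so the groups overlapped in the total and differed in its make-up. *Fcgr2b* reads per 100 reads of *Fcgr1* were 41.7 and 13.5 in WT and 225 and 556 in the libraries labelled Rxra-KO.

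**Figure D2:**
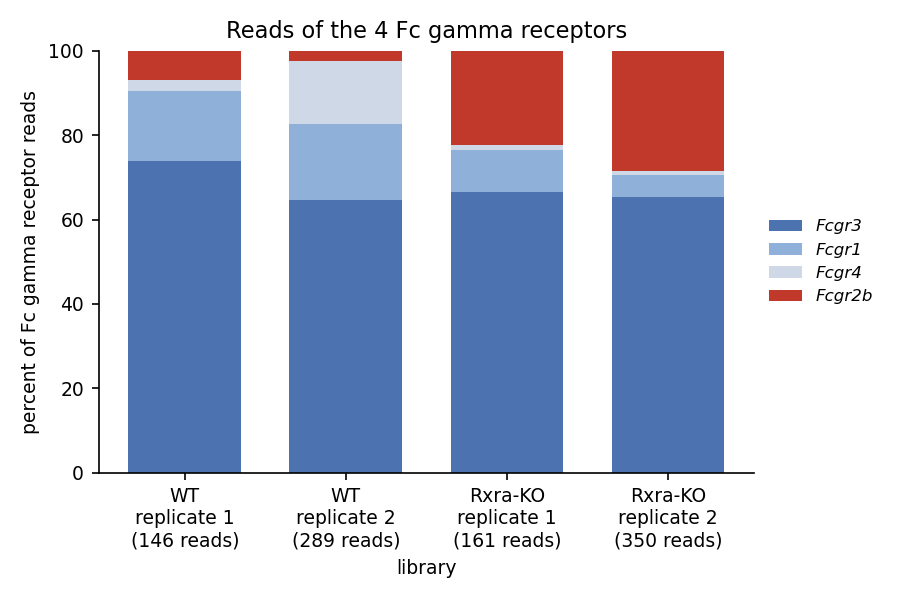
Share of each Fc gamma receptor in the reads of all 4 (percent, stacked to 100) in each library, with the number of reads under each bar. The red segment, *Fcgr2b*, takes 6.85% and 2.42% in the WT libraries and 22.4% and 28.6% in the Rxra-KO libraries, while *Fcgr3* stays between 64.7% and 74.0%.

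Among blood cells *Fcgr2b* is also the Fc gamma receptor of B cells, which share the peritoneal cavity with LPMs. Of 5 B cell markers in the table, limma, edgeR and DESeq2 called 0, and 1 had an unadjusted p under 0.05 in limma. A mean under 10 reads was found for 4 of the 5, so a change in them could easily be missed. The summed value of the 5 was 46.2 and 48.3 in WT and 73.0 and 50.2 in the libraries labelled Rxra-KO. *Cd79a* had 1 to 3 reads in every library, and *Ms4a1* had 0 and 1 in WT and 5 and 5 in the libraries labelled Rxra-KO. Of 9 dendritic cell markers 7 had a mean under 10 reads and 1 rose. The gene that rose was *Cd209a*, which SPMs and monocyte-derived cells also express, from 14 and 13 reads to 43 and 80. *Blnk* had 4 and 2 reads in WT against 15 and 15, and *Blk* 7 and 1 against 11 and 11. Both are B cell genes of other lists, named after their values were seen, and neither was called. *Fcer2a*, given below, was lower (log2FC -0.32). The part of *Ms4a1*, *Blnk*, *Blk* and *Cd209a* in the rise of *Fcgr2b* was not tested.

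*Fcgrt* had the smallest p of the set. It encodes the heavy chain of FcRn, which binds IgG at the acid pH of endosomes and returns it to the surface. Values were 85.5 and 99.3 in WT and 428 and 357 in the libraries labelled Rxra-KO, from 56 and 91 reads against 284 and 359. Replicates lay close together in each group and the groups stood far apart. The mean rose 4.25-fold, from 92.4 ± 9.70 to 393 ± 50.4 (SD, n = 2 each), with a log2FC of 2.07 ± 0.25 (SE) and an adjusted p of 4.93e-12 (limma). Leaving out any library gave 1.94 to 2.20 and kept the call. The only fits that lost it were those of limma without a mean-variance trend, with an adjusted p of 0.445, or of 0.0835 with values under 10 filtered out.

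The light chain of FcRn is beta-2 microglobulin (*B2m*), which also pairs with MHC class I. Its reads were 343 and 917 in WT against 316 and 689, and its log2FC was -0.33 ± 0.22 (SE, limma, adjusted p = 0.696). The groups overlapped. Per 100 reads of *B2m*, *Fcgrt* counted 16.3 and 9.92 in WT against 89.9 and 52.1.

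Neither ITAM adaptor was called. *Fcer1g*, the FcRγ chain, had values of 81.0 and 75.4 in WT and 88.1 and 118 in the libraries labelled Rxra-KO. These libraries lay above WT by a small margin for replicate 1, and the log2FC of 0.38 (95% interval -0.20 to 0.96) was not called (limma, adjusted p = 0.769). Per 100 reads of *Fcgr3*, *Fcer1g* counted 49.1 and 36.9 in WT against 54.2 and 51.5. Mast cells and neutrophils also carry the FcRγ chain. Of 7 mast cell and basophil and 5 neutrophil markers limma, edgeR and DESeq2 called 0, with 1 mast cell marker at an unadjusted p under 0.05 (limma). Summed values were 18.4 to 37.1 and 109 to 130 over the 4 libraries. A mean under 10 reads was found for 7 of the 7 and 4 of the 5.

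*Tyrobp* encodes DAP12, the partner of TREM2. Its values were 62.8 and 46.1 in WT and 21.8 and 33.3 in the libraries labelled Rxra-KO, from 41 and 42 reads against 14 and 33. Both libraries labelled Rxra-KO lay below both WT libraries, and the log2FC of -0.97 ± 0.38 (SE) had an unadjusted p of 0.0117 and was not called (limma, adjusted p = 0.249).

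*Trem2* was close to absent in the WT libraries. Its 2 and 3 reads there gave values of 3.79 and 3.80, and its 23 and 24 reads in the Rxra-KO libraries gave 35.4 and 24.3. The groups stood clear of each other, with means of 3.79 ± 0.00828 and 29.9 ± 7.81 (SD, n = 2 each). Summed over libraries and scaled, the libraries labelled Rxra-KO held 8.90 times the reads of WT (95% interval 3.56 to 28.7, counting error only). The log2FC was 2.66 ± 0.63 (SE) with an adjusted p of 0.00289 (limma). The call was lost without Rxra-KO replicate 1 (adjusted p = 0.357), without Rxra-KO replicate 2 (adjusted p = 0.0612) and with DESeq2 (adjusted p = 0.0627), and over all alternatives the adjusted p ran from 0.000924 to 0.357.

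Reads of TREM2 and of the adaptors can be set against each other. Per 100 reads of *Tyrobp* there were 4.88 and 7.14 reads of *Trem2* in WT and 164 and 72.7 in the libraries labelled Rxra-KO, and per 100 reads of *Tyrobp* there were 129 and 164 of *Fcer1g* in WT against 414 and 358. In both ratios each library labelled Rxra-KO was above each WT library.

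*Syk*, the kinase that binds phosphorylated ITAMs, had values of 217 and 167 in WT and 201 and 162 in the libraries labelled Rxra-KO. The groups overlapped, and the log2FC was -0.07 (95% interval -0.57 to 0.42, limma, adjusted p = 0.981).

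**Figure D3:**
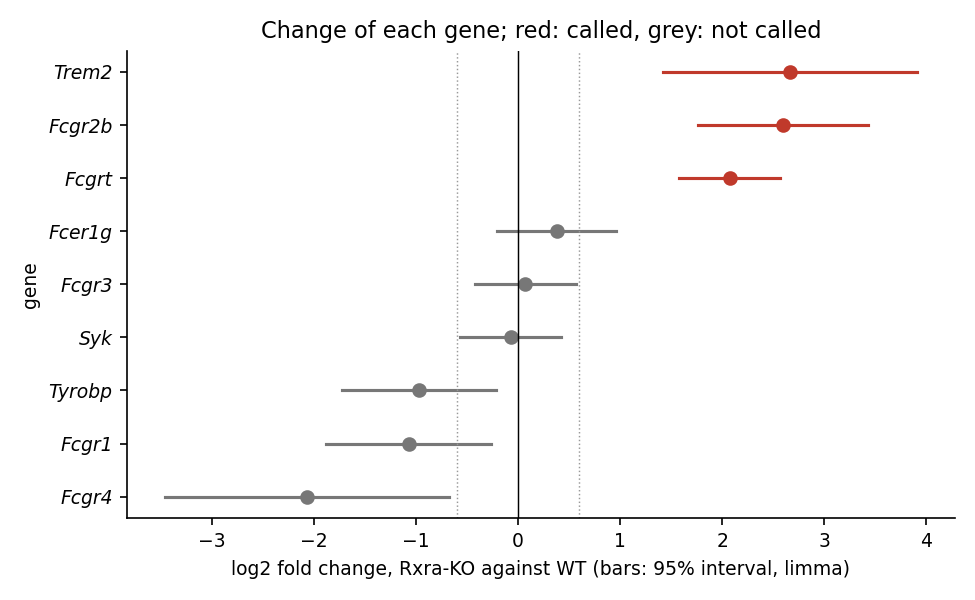
Log2FC of each gene, Rxra-KO against WT, with its 95% interval from limma and dotted lines at the fold threshold of 0.6 in each direction. *Trem2* at 2.66, *Fcgr2b* at 2.60 and *Fcgrt* at 2.07 (red) were called, while *Tyrobp*, *Fcgr1* and *Fcgr4* had intervals below 0 and were not called after adjustment.

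Levels between genes were compared per kilobase of GENCODE vM21 exons. In WT the highest was *Fcgr3*, with 136 ± 20.5 normalised value per kilobase (SD, n = 2), followed by *Fcer1g* (105 ± 5.30), *Tyrobp* (96.6 ± 21.0), *Fcgrt* (51.9 ± 5.44) and *Syk* (31.8 ± 5.95). *Fcer1g* and *Tyrobp* differed by less than their spread. *Fcgr4* (21.5 ± 22.7) came next and, with its wide spread, could not be told apart from *Syk* above it or from *Fcgr1* (18.2 ± 5.42) below it. *Trem2* (3.32 ± 0.00724) and *Fcgr2b* (3.15 ± 1.44) closed the order and could not be told apart.

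In the libraries labelled Rxra-KO, *Fcgrt* was first with 220 ± 28.3 per kilobase, ahead of *Fcgr3* (145 ± 34.7), *Fcer1g* (138 ± 28.0) and *Tyrobp* (48.9 ± 14.3). *Fcgr3* and *Fcer1g* differed by less than their spread. *Syk* (30.1 ± 4.53), *Trem2* (26.1 ± 6.84) and *Fcgr2b* (20.3 ± 8.33) came next, each within the spread of its neighbour. *Fcgr1* (8.35 ± 1.77) and *Fcgr4* (2.88 ± 0.162) were last.

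The genes with the pattern most like each of the 3 genes that rose were found by Euclidean distance of centred log2(value + 1) over the 4 libraries, among 10047 genes with a mean value of at least 10. For *Fcgr2b* these were *Ccl6* (distance 0.583), *Zdhhc14* (0.603) and *Gm15987* (0.681). For *Fcgrt* they were *Fam189b* (0.170), *Gypc* (0.172) and *Tenm4* (0.249). For *Trem2* they were *Clec10a* (0.176), *Pea15a* (0.262) and *Lmo2* (0.348). With 4 libraries in 2 groups, a short distance describes little beyond a like difference between groups: the log2FCs were 2.49 for *Ccl6*, 2.00 for *Gypc* and 2.80 for *Clec10a*.

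Around these 9 genes, 8 lists of Fc receptor and ITAM pathway genes held 158 genes of the table, of which 3 rose and 5 fell (5.06%, beside 2.29% of all genes). Log2FCs were positive for 94 and negative for 64, with a median of 0.10 beside 0.02 over all genes. The genes that passed were spread over 5 of the lists, and no list had more than 2 in either direction.

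Among 12 other Fc receptor genes, IgA, IgE and IgM receptors and Fc receptor-like genes with *B2m* among them, 0 were called and 0 had an unadjusted p under 0.05 in limma, and edgeR and DESeq2 also called 0. *B2m*, given above, and *Fcer2a*, the low-affinity IgE receptor, had the highest values not called. *Fcer2a* counted 13 and 23 reads in WT against 12 and 17, a log2FC of -0.32 (limma, adjusted p = 0.935). The median log2FC of the list was -0.18.

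Among 27 other receptors and adaptors coupled to an ITAM, 1 rose and 2 fell, with a median log2FC of -0.15. *Clec4n* (dectin-2), a receptor for fungal mannan that signals through the FcRγ chain, rose from 0 and 8 reads to 17 and 43, with a log2FC of 3.04 (limma, adjusted p = 0.000428). *Clec4e* (Mincle), a glycolipid receptor that uses the same chain, fell from 298 and 425 reads to 144 and 268, a log2FC of -0.92 (limma, adjusted p = 0.00647). *Cd247*, the CD3 zeta chain of T and NK cells, fell from 9 and 20 reads to 1 and 2, a log2FC of -2.49 (limma, adjusted p = 0.0386). Partners of the same adaptor thus lay on both sides of 0 while *Fcer1g* itself was not called.

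The calls of these 3 genes were not firm. *Clec4n* was not called by DESeq2 (adjusted p = 0.113) or without WT replicate 1 (0.0604), Rxra-KO replicate 1 (0.0817) or Rxra-KO replicate 2 (0.216). *Clec4e* was lost without WT replicate 1, WT replicate 2 or Rxra-KO replicate 1, with adjusted p of 0.0898 to 0.249 (limma), and *Cd247* was lost without any 1 library and in voom (adjusted p = 0.0806). Of 5 T and NK cell markers limma, edgeR and DESeq2 called 0, and 0 had an unadjusted p under 0.05. A mean under 10 reads was found for 4 of the 5, and the summed value of the 5 was 37.1 to 51.9 over the 4 libraries. The log2FC was positive for 3 of the markers and negative for 2. *Cd3d*, the marker with the most reads, had 20 and 21 in WT against 21 and 25, a log2FC of 0.09. *Lck*, a T cell kinase of the Src family named after its value was seen, had 7 and 11 reads in WT against 2 and 0. Its log2FC of -2.27 was not called (limma, adjusted p = 0.132), and the part of T cell RNA in the fall of *Cd247* was not tested. *Cd300ld* (log2FC -0.15) and *Clec7a* (dectin-1, a beta-glucan receptor with an ITAM-like motif of its own, 0.04) had the highest values not called.

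Of 18 Src family kinases and genes that control them or end their signal, 0 rose and 2 fell, with a median of 0.11. Limma gave 6 of the 18 an unadjusted p under 0.05, 2 higher and 4 lower, where 10.1% of all genes passed. *Sla*, an adaptor that lowers signalling of immune receptors, fell from 100 and 142 reads to 33 and 43, a log2FC of -1.69 ± 0.30 (SE, limma, adjusted p = 7.10e-06). *Ubash3a*, a phosphatase-like protein known from T cells, fell from 26 and 39 reads to 3 and 9, a log2FC of -2.39 (limma, adjusted p = 0.00078), and was lost without Rxra-KO replicate 1 (adjusted p = 0.0762). In both genes the groups stood clear of each other. The phosphatase CD45 (*Ptprc*, 0.18) and the kinase *Lyn* (-0.25), which phosphorylates ITAMs and ITIMs, were highest in value and not called.

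Downstream of Syk, none of 32 genes was called in either direction with limma, edgeR or DESeq2, although limma gave 8 an unadjusted p under 0.05, 4 higher and 4 lower. The median was 0.06. *Plcg2*, the phospholipase that raises calcium, had a log2FC of 0.40 (limma, adjusted p = 0.608), and the adaptor *Grb2* of 0.32 (limma, adjusted p = 0.749).

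Of 24 genes of actin and the phagocytic cup, 1 rose and 0 fell, with 17 positive log2FCs and a median of 0.22. *Rac1*, the GTPase that drives actin at the cup, rose from 68 and 154 reads to 147 and 339, and values from 104 and 168 to 222 and 337. The groups did not overlap, and the log2FC was 1.05 ± 0.25 (SE, limma, adjusted p = 0.00375). The call was lost with DESeq2 (adjusted p = 0.0859), without WT replicate 1 (0.378) and without Rxra-KO replicate 2 (0.458). edgeR and voom also called *Myo1e*, named after its value was seen, a myosin of the cup, at a log2FC of 1.29 (edgeR, adjusted p = 0.00990). The Arp2/3 subunits *Arpc2* (0.35) and *Actr2* (0.14) were not called.

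The next list held 23 other ITIM receptors and their relatives, not all of which carry an ITIM. Of these 0 rose and 1 fell, with 17 positive log2FCs and a median of 0.28. At an unadjusted p under 0.05, limma listed 7 of the 23, 4 higher and 3 lower, where 10.1% of all genes passed. *Pilra*, an ITIM receptor of myeloid cells, fell from 155 and 279 reads to 57 and 130, a log2FC of -1.33 ± 0.26 (SE, limma, adjusted p = 7.54e-05). This call was lost without Rxra-KO replicate 1 (adjusted p = 0.103) and at the edge without WT replicate 2 (0.0501). *Sirpa*, the receptor for the CD47 signal that restrains phagocytosis, counted 231 and 353 WT reads against 364 and 557, a log2FC of 0.59 (limma, adjusted p = 0.219), and *Clec4a3* had a log2FC of 0.66 (limma, adjusted p = 0.111) and was called higher by voom, at 0.68 (adjusted p = 0.0417). edgeR called 1 gene of this list higher, *Cd200r1*, named after its value was seen, at a log2FC of 1.57 (adjusted p = 0.0184).

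Of 12 inhibitory phosphatases and adaptors 1 rose and 0 fell, with a median of 0.21. *Dok2*, an adaptor that lowers signalling of kinases, rose from 19 and 20 reads to 57 and 107, values of 29.5 and 22.2 against 86.6 and 107. Its groups stood clear of each other, with a log2FC of 1.87 ± 0.35 (SE, limma, adjusted p = 3.08e-05), and the call was kept by edgeR and DESeq2 and with any 1 library left out, and lost in limma without a trend (adjusted p = 0.472). The phosphatases SHP-1 (*Ptpn6*, -0.18) and SHP-2 (*Ptpn11*, 0.62) were not called. SHIP-1 (*Inpp5d*), the lipid phosphatase that FcγRIIB recruits, is given outside the rule for naming genes and counted 38 and 50 reads in WT against 38 and 47 (log2FC -0.11).

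Of 10 genes for ligands of TREM2 and its shedding, 0 were called by limma, edgeR or DESeq2, 2 had an unadjusted p under 0.05 in limma, and the median was 0.09. voom called 1 of them higher, the sheddase *Adam10*, named after its value was seen, at a log2FC of 0.63 (adjusted p = 0.0488). *Apoe*, a lipoprotein that TREM2 binds, counted 21610 and 19578 reads in WT against 20500 and 48732. Only Rxra-KO replicate 2 was high, the groups overlapped, and the log2FC of 0.55 was not called (limma, adjusted p = 0.452). *Grn* (progranulin) had a log2FC of 0.40 (limma, adjusted p = 0.545).

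**Figure D4:**
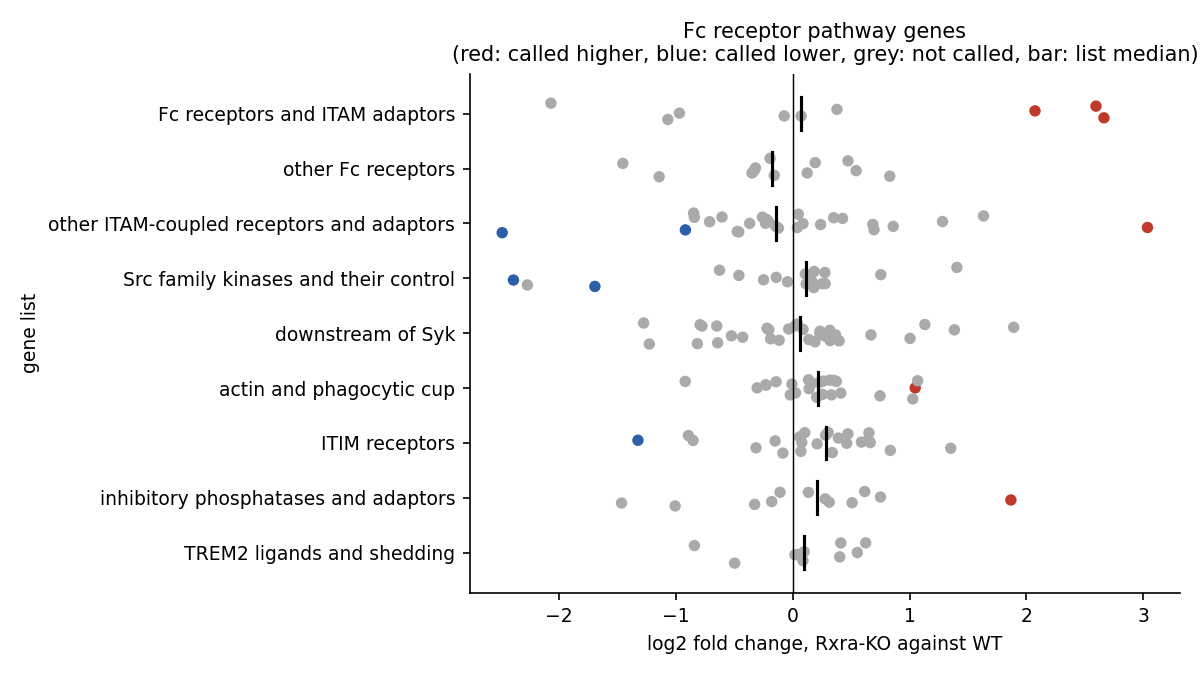
Log2FC (horizontal axis, Rxra-KO against WT) of every gene of the 9 studied and of the 8 pathway lists, 1 point a gene, red for called higher, blue for called lower and grey for not called, with a bar at the median of each list. The medians of the 8 lists lie between -0.18 and 0.28, and the called points lie on both sides of 0.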

How the data were processed

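Bulk RNA of sorted LPMs was sequenced from 2 WT and 2 Rxra-KO libraries. Per the methods, a low-input SMART-Seq v4 kit was used and transcripts were quantified with kallisto 0.43.0, summarised with tximport, scaled by TMM and compared with limma. The submitters' processing notes name GRCh38, a human build, for these mouse libraries. The deposited genes carry mouse names, *Gm15987* among them, and which mouse reference was used was not settled. RNA-seq samples that did not cluster with their group were excluded by the study.

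The values deposited by the authors are a normalised read signal, in which reads + 0.5 were divided by the scaled size of the library. This gave whole reads for 100% of values (tolerance 0.001), in all 652542 and 947372 for WT against 629030 and 1047021 for Rxra-KO, and 9514 genes had a mean under 10 reads. Intervals cover counting error only.

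Log2(value + 1), which understates the change of low genes, was fitted with limma 3.58.1 (R 4.3.3) with a mean-variance trend over 18364 genes, all 4 libraries and no covariate, two-sided, with p adjusted by Benjamini-Hochberg. The filter (value 1 or more, 2 libraries or more) removed no gene. With 227 prior against 2 residual degrees of freedom, each p rests on the spread shared across genes. The fit was tested on simulated data. Alternatives were voom, edgeR 4.0.16 and DESeq2 1.42.0 on recovered reads, other pseudocounts, filters, scalings and thresholds, each library left out, and a replicate block.

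The 9 genes and all lists were chosen with earlier results of these data known. Named were the 9 genes, of each pathway list the called genes and up to 2 with the highest mean value not called, the called markers, the RXR genes and *Lyz2*, and the 3 genes of the nearest pattern. The study named several LPM and SPM markers from these libraries, so they are not independent evidence. Lists also held eosinophil (6 in the table, summed values 88.8 to 114), mesothelial (5, 59.5 to 88.4), platelet (6, 105 to 127) and erythroid (1, 2.26 to 12.4) markers, of which limma, edgeR and DESeq2 called 0 and 3 had an unadjusted p under 0.05 in limma, and *Lyz2*, which fell (log2 fold change -1.03, adjusted p = 0.00163). A mean under 10 reads was found for 5 of the eosinophil, 4 of the mesothelial and 5 of the platelet markers and for the 1 erythroid marker. *Rxrb* had 13 and 16 reads against 13 and 23. Motifs were searched in RefSeq promoters of GRCm38.p6, found for 8 of the 9 genes. Protein sequences were not used here.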

Additional observations from a re-analysis of the deposited data

How the results depend on the processing

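Of 1126 values of 63 named genes under 18 other fits, 972 kept direction and side of the threshold, 139 lost a call, 5 gained one and 10 changed sign, all in genes not called. The 3 genes called higher were 3 under the other pseudocounts, filters, scalings and thresholds, voom, edgeR and the replicate block, 2 with DESeq2 (*Trem2* lost), and 0 with limma without a trend (3 of the 9 at an unadjusted p under 0.05), also with values under 10 filtered out (5 of 8). Leaving out each library gave 1 (only *Fcgrt*, without Rxra-KO replicate 2) to 3. The count called lower was 0, and 1 with edgeR; leaving out each library gave 0 to 1 (without WT replicate 1), in each case *Fcgr4*. Limma without a trend gave it an adjusted p of 0.583, and DESeq2 of 0.163.

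Over all genes, 421 were called, 0 with limma without a trend (1579 at an unadjusted p under 0.05), 26 with it and values under 10 filtered out, 235 with DESeq2 and 191 with DESeq2 without independent filtering. The filtered fit without a trend and DESeq2 without independent filtering were chosen after seeing the data. Leaving out each library gave 167 (without Rxra-KO replicate 1) to 381, with 240 without WT replicate 2. The difference in *Fcgr2b* share, 20.8 percentage points, ran from 17.7 to 23.9.

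Signs turned only when 1 library was left out. *Fcgr3* ran from -0.17 to 0.32 (-0.08 without WT replicate 1), *Syk* from -0.26 to 0.12 (0.08 without Rxra-KO replicate 2), *B2m* from -0.80 to 0.14, *Clec7a* from -0.17 to 0.25 (-0.04 without Rxra-KO replicate 2), *Ptpn6* from -0.42 to 0.060 (0.049 without WT replicate 2) and *Rxrg* from -2.15 to 0.54. The cause was not tested.

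Deviations of same-numbered libraries from their group means had r = 0.0629 over 10049 genes. This does not show whether those libraries were prepared together. Depth was alike within a number, at 652542 (WT) and 629030 (Rxra-KO) reads for replicate 1 and 947372 and 1047021 for replicate 2. The replicate block gave 540 called genes and the same 3 higher, and it also called *Clec4a3*, *Cd200r1*, *Myo1e* and *Adam10* higher. Other scalings shifted the median over all genes by 0.0210 or less. The filter settings removed no gene at a minimum of 1, so no filter tested nothing, and *Fcgr4* had no value at a minimum of 10. Reads of 2 to 43 limit *Fcgr4* and *Trem2* most.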
